A study of Homo sapiens with 6 samples.

Results

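The genes described here are 10 angiogenic growth factors and hypoxia markers: VEGFA, VEGFB, VEGFC, PDGFA, PDGFB, ANGPTL4, ADM, CA9, STC1 and HIF1A. They were picked by symbol, and a probe set for 9 of the 10 was found among the 17687 named genes of the array, the exception being CA9, which was not analysed here. Each gene had 1 probe set. Signals are given as log2(intensity + 1), and a signal counts as above background when it exceeds the 95th percentile of the array's 612 negative control probe sets, which lay between 6.92 and 7.47 on that scale. Of the 9 genes, 5 were above background on all 6 arrays, 3 on some of them and 1, ANGPTL4, on none. Over all named genes 41.9% were above background on all 6 arrays.

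The 6 Clarion S arrays hold 1 array per cell line and condition. PC-9 and HCC827, both lines of non-small cell lung cancer, carry mutations in EGFR, the receptor for epidermal growth factor, and each gave a control array and an array of cells treated for 6 hours with erlotinib at 0.01 µM, a drug that blocks the kinase of this receptor. H322, labelled wild-type, gave a control array and an array after 6 hours with EGF, a ligand of the receptor, at 100 µg/ml in the unit of the labels. Cells were kept in medium with TNFa, and the labels do not say whether this holds for the control cultures. If it does not, TNFa and the treatments cannot be told apart. Whether the arrays come from separate cultures is not stated. The p-values below take the 2 mutant lines as the replicates, and no single line has a replicate of its own. All 8 markers of epithelial cells were above background on all 6 arrays. Of the 8 endothelial markers measured 1 was above background on all 6 arrays and 5 on none, of 6 fibroblast and pericyte markers 4 were on none, and of 7 leukocyte markers 4 were on none. Others of these lists were measured. The leukocyte marker CD68 was above background on 5 arrays, at 13.22 and 13.66 in HCC827, and ITGAM on both PC-9 arrays. The fibroblast marker COL1A2 was above it on 5 arrays. DUSP6, a phosphatase induced by ERK signalling, read 10.61 and 5.50 in PC-9 without and with erlotinib, 13.40 and 10.09 in HCC827, and 10.42 and 11.19 in H322 without and with EGF. The DUSP6 signal of PC-9 with erlotinib was below the background of 7.35, so the size of that fall is not measured.

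Vascular endothelial growth factors (VEGF) are secreted dimers that bind receptor tyrosine kinases on endothelial cells: VEGFA drives the sprouting of blood vessels and VEGFC that of lymphatic vessels. Platelet-derived growth factors (PDGF) recruit pericytes and fibroblasts. Many of these genes are known targets of hypoxia-inducible factor, HIF, whose subunit HIF1A is controlled mainly through the stability of the protein, so that its mRNA need not follow its activity. Tumour cells release these factors, and the cells that respond to them are for the most part other cells of the tissue, which are no part of a culture of a tumour line.

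The promoters of 3 of the genes are shown because the genes differed in how they moved with erlotinib: VEGFC fell, its family member VEGFB did not pass the test, and ADM had opposite signs in the 2 lines. Each sequence is the 250 bases before the gene start in the RefSeq table (GRCh38.p14), 5′ to 3′ on the strand of the gene, with matches to the core of a hypoxia response element in capitals. The positions are chr4:176792923-176793172 on the minus strand for VEGFC, chr11:64234334-64234583 on the plus strand for VEGFB and chr11:10304823-10305072 on the plus strand for ADM.
VEGFC: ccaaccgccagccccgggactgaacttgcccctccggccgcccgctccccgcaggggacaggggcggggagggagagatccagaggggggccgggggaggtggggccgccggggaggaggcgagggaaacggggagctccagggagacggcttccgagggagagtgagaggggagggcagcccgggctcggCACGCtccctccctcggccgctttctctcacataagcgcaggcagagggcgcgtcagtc
VEGFB: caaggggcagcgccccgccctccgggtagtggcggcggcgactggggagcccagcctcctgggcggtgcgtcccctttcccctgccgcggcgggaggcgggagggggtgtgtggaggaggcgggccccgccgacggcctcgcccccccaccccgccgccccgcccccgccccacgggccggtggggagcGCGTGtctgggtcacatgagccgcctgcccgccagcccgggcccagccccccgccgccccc
ADM: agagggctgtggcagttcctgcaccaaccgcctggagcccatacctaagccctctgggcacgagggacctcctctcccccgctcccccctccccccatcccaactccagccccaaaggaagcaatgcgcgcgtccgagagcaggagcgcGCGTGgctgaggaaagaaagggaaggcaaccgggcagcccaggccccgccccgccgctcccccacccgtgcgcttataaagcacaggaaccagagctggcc
The motifs searched on both strands were the hypoxia cores ACGTG and GCGTG, the AP-1 site TGANTCA and the ETS site CCGGAAGT. Each of the 3 promoters held 1 match to GCGTG, starting 59 bases before the gene start in VEGFC (on the opposite strand, where it reads CACGC here), 61 in VEGFB and 101 in ADM, and no match to the other 3 motifs. Of 35116 RefSeq promoter windows 32.2% held GCGTG, 18.5% ACGTG, 6.57% the AP-1 site and 3.42% the ETS site in these 250 bases. The match was present in all 3 promoters, and whether it plays a part in the changes of these genes was not tested. The table held 7 of the 10 genes. ANGPTL4 had 1 match to ACGTG, starting 234 bases before its start, and none to the other 3 motifs, and CA9 had 1 to ACGTG at 18 bases and 1 to the AP-1 site at 77. PDGFA and HIF1A have several starts there, whose windows held from 0 to 3 and from 0 to 1 matches to GCGTG. VEGFA, PDGFB and STC1 had no promoter window there and were not searched for the motifs.

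The first comparison asks what blocking mutated EGFR does to these genes. VEGFA, VEGFC and STC1 fell with erlotinib, by 2.23-fold, 2.16-fold and 5.82-fold on average over the 2 lines, and all 3 were lower in each line. VEGFB, PDGFA, PDGFB, ANGPTL4, ADM and HIF1A did not pass the test. The test was limma over all 17687 genes with the cell line as a block and a Benjamini-Hochberg adjusted p under 0.05. It called 0.916% of all genes lower, against 3 of the 9 members, and 0.565% higher, against 0 of the 9 in limma, where no member was higher at an unadjusted p under 0.05 either. The median change of the 9 members was -0.71, and that of all genes was 0.00 on the log2 scale. The members' median is the value of PDGFA, with neither HCC827 array above background, and the 9 include ANGPTL4, above background on no array. The members were chosen with results of these data known, so their count describes them and does not test them as a group.

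VEGFA, the main factor of blood vessel sprouting, read 13.74 on the PC-9 control array and 12.41 with erlotinib, while HCC827 gave 14.15 and 13.16. The erlotinib array was the lower in both lines, and both erlotinib arrays lay below both control arrays. The decrease was 2.51-fold in PC-9 and, in HCC827, 1.98-fold. The mean change was -1.16 ± 0.14 in log2 units (n = 2 lines; limma adjusted p = 0.0182), where ± gives the moderated SE of the fit, here and below. Among the 8538 genes above background on both PC-9 arrays 1.26% had a lower change than VEGFA, and among 8691 such genes in HCC827 3.30% did. In whole cultures fewer expressing cells and less RNA per cell cannot be told apart, which holds for all values here.

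VEGFC, the lymphatic factor of the family, read 13.52 and 12.63 in PC-9 without and with erlotinib, and 12.00 and 10.67 in HCC827. Each line's erlotinib array lay below its control, but the PC-9 erlotinib array was above the HCC827 control, so the groups overlapped. The decrease of VEGFC was 1.85-fold in PC-9 and, in HCC827, 2.52-fold, the reverse of the order seen for VEGFA. Its mean change was -1.11 ± 0.17 (limma adjusted p = 0.0318). In PC-9 3.85% of the genes above background had a lower change, and in HCC827 1.55%.

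VEGFB, which binds the receptor FLT1 and is known more for effects on metabolism and vessel survival than on sprouting, read 10.65 and 10.80 on the PC-9 arrays and 9.98 and 9.91 on those of HCC827. The treated and control arrays of a line lay closer together than the lines did. The mean change was 0.04 ± 0.19 (limma adjusted p = 0.955), with 0.15 in PC-9 and -0.07 in HCC827. The 95% interval of the change from the limma fit ran from -0.40 to 0.48, and the mean changes of VEGFA and VEGFC lie outside it. The difference between the VEGF genes was not tested.

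STC1 encodes stanniocalcin 1, a secreted glycoprotein hormone that endothelial and tumour cells make in hypoxia. It read 12.35 and 9.51 on the PC-9 arrays and 12.14 and 9.90 on those of HCC827. Its control arrays were nearly level in the 2 lines, and both erlotinib arrays lay well below them. The decrease was 7.16-fold in PC-9 and, in HCC827, 4.73-fold, with a mean change of -2.54 ± 0.20 (limma adjusted p = 0.00734), the lowest of the 9 members. By the p of the test it ranked 6 among the 17687 genes, where VEGFA ranked 50 and VEGFC 122.

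**Figure D1:**
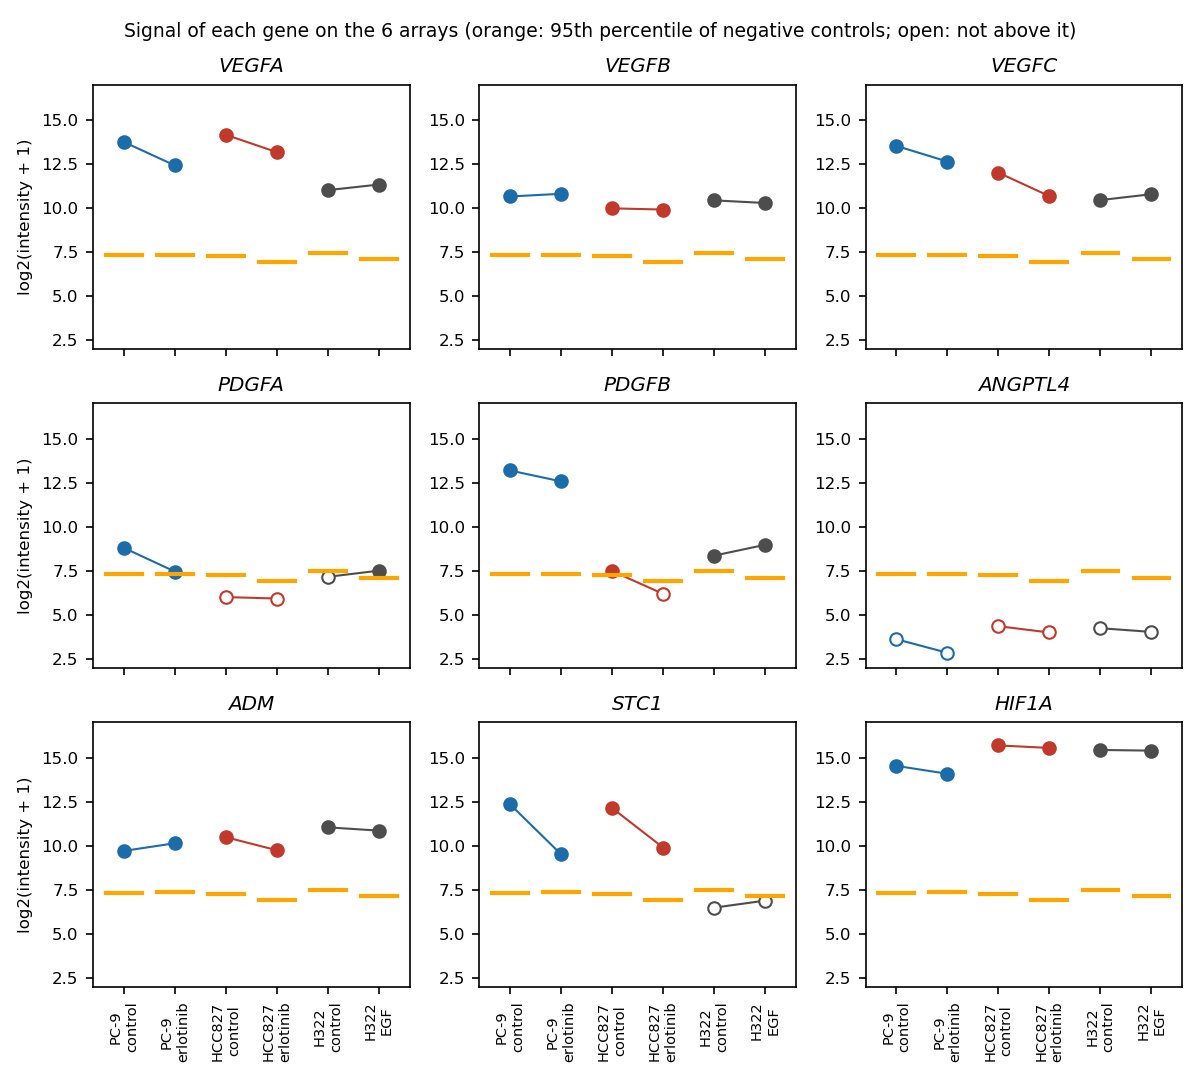
Signal, as log2(intensity + 1), of the 9 genes on the 6 arrays, 1 point per array with a line joining the 2 arrays of a cell line (PC-9 blue, HCC827 red, H322 grey). Orange bars mark the 95th percentile of the negative controls and open points are not above it: ANGPTL4 is open on all 6 arrays, STC1 on both H322 arrays, and VEGFA and STC1 step down from control to erlotinib in both mutant lines.

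The PDGF genes, which encode the A and B chains of dimers that act on pericytes and fibroblasts, had their highest signals on the PC-9 control array. PDGFB read 13.20 and 12.58 in PC-9 without and with erlotinib, and 7.49 and 6.20 in HCC827, where the control was just above background and the erlotinib array was not. The decrease of PDGFB was 1.54-fold in PC-9 and, with the dim array set to its background, at least 1.49-fold in HCC827. Its mean change of -0.96 ± 0.23 did not pass (limma adjusted p = 0.105). It passed with arrays centred on their medians (limma adjusted p = 0.0484) and after quantile normalization (limma adjusted p = 0.0195). With each dim array set to its background first, the mean change of PDGFB was -0.60 and did not pass (limma adjusted p = 0.107).

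PDGFA read 8.81 and 7.47 in PC-9, the erlotinib array lying just above the background of 7.35, and 6.02 and 5.94 in HCC827, neither above it. It was 2.53-fold lower in PC-9, and no fold is given in HCC827. Its mean change was -0.71 ± 0.35 (limma adjusted p = 0.42) and rests on the dim HCC827 signals as well.

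ADM encodes adrenomedullin, a vasodilator peptide and a target of HIF that is often read as a marker of hypoxia. It read 9.71 and 10.14 in PC-9 without and with erlotinib, and 10.48 and 9.74 in HCC827. The erlotinib array was the higher in PC-9 and the lower in HCC827, all 4 signals being above background. The difference was 1.35-fold upward in PC-9 and 1.67-fold downward in HCC827, and the mean change was -0.15 ± 0.29 (limma adjusted p = 0.879). Opposite signs in the 2 lines were found for 32.2% of the 7796 genes above background on all 4 arrays. With 1 array per line and condition the difference between the lines was not tested.

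HIF1A, the oxygen-regulated subunit of HIF, read 14.53 and 14.08 on the PC-9 arrays and 15.69 and 15.54 on those of HCC827. It was bright on every array and lower with erlotinib in both lines, by 1.36-fold in PC-9 and, in HCC827, by 1.10-fold. The mean change of -0.30 ± 0.12 did not pass (limma adjusted p = 0.323). ANGPTL4, an inhibitor of lipoprotein lipase that HIF and PPAR factors induce, read between 2.86 and 4.37 on the 6 arrays, below background on each. No fold is given for it, and its mean change of -0.56 ± 0.21 (limma adjusted p = 0.281) is a difference between signals of that kind.

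**Figure D2:**
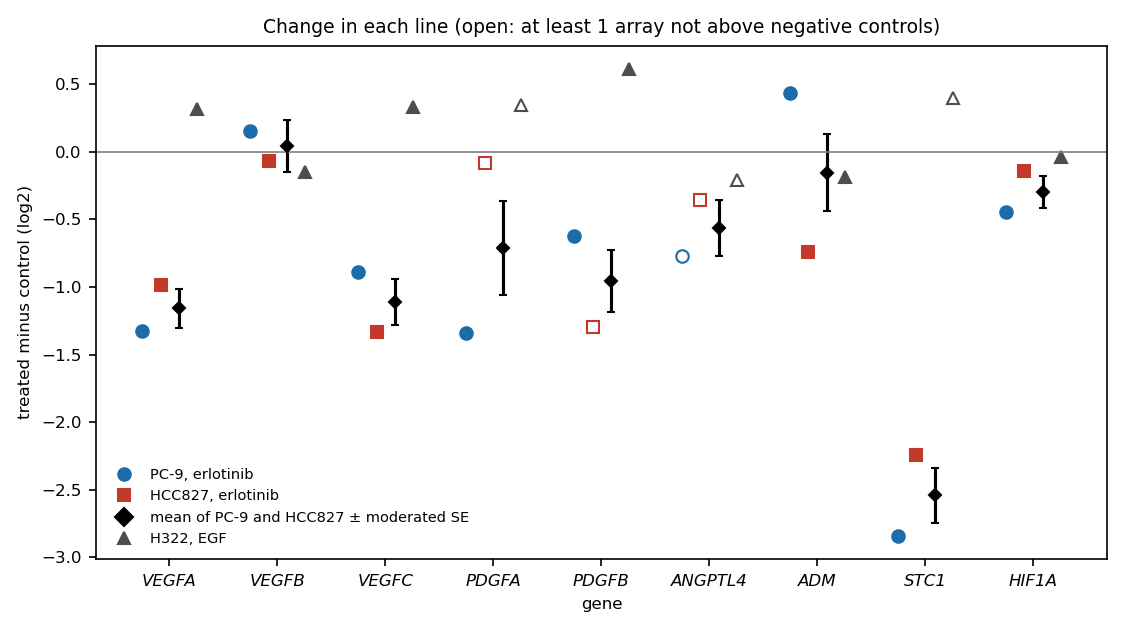
Treated minus control on the log2 scale for the 9 genes: circles and squares are PC-9 and HCC827 with erlotinib, black diamonds their mean with limma's moderated SE, and triangles H322 with EGF. Open symbols rest on at least 1 array that was not above the negative controls. STC1, VEGFA and VEGFC have both mutant lines well below 0, and ADM has them on either side of it.

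Taken line by line, with no test, a 2-fold decrease was reached by VEGFA, PDGFA and STC1 in PC-9 and by VEGFC and STC1 in HCC827. These were 3 of the 8 members above background on at least 1 array in PC-9, where 2.93% of all such genes were at least 2-fold lower, and 2 of 7 in HCC827, where 3.25% were. VEGFA missed the threshold in HCC827 at 1.98-fold. No member was at least 2-fold higher in either line, against 1.45% of such genes in PC-9 and 4.08% in HCC827. Of the 6 members above background on all 4 arrays, VEGFA, VEGFC, STC1 and HIF1A were lower in both lines, as were 30.8% of all genes so measured.

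The calls of VEGFA, VEGFC and STC1 rest on limma's model of the spread, which has 1 residual degree of freedom here and adds 6.58 from the other genes, and which on simulated data gave more false calls than its threshold allows. With no trend of the spread on the level, and likewise with no term for the cell line, none of the 3 passed (limma adjusted p = 0.155, 0.166 and 0.0971 with no trend, and 1 for each with no line term), and VEGFC also missed the threshold among genes above background (limma adjusted p = 0.0559).

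The second comparison asks what EGF does to the same genes in a line with the wild-type receptor, where it has 1 array per condition and no test. VEGFA read 11.01 without and 11.33 with EGF, a 1.25-fold higher signal. VEGFC read 10.45 and 10.78, 1.26-fold higher, and PDGFB 8.37 and 8.98, 1.53-fold higher. These differences were small, yet in the upper part of all changes in H322: among 8583 genes above background on both H322 arrays 8.78% had a higher change than VEGFA, 7.96% than VEGFC and 1.35% than PDGFB. PDGFA was below background without EGF and above it with EGF, at 7.17 and 7.52, at least 1.03-fold higher. VEGFB, ADM and HIF1A had changes of -0.15, -0.19 and -0.04. Neither STC1 signal, 6.49 and 6.89, nor either ANGPTL4 signal was above background in H322. No member changed 2-fold, and 0.22% of genes above background on at least 1 H322 array did.

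The arrays of the 2 comparisons are separate, so their signs can be set side by side. VEGFA and VEGFC, which fell with erlotinib in the mutant lines, were both higher with EGF in H322. This was common: of the 137 genes that fell with erlotinib and were above background on both H322 arrays, 127 were higher with EGF, or 92.7%. Of all genes above background on both H322 arrays 50% were higher with EGF. The size with EGF was smaller for both genes, at 0.32 and 0.33 on the log2 scale. Line, genotype, ligand and inhibitor differ together between these comparisons, so what sets the sizes apart cannot be told apart.

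**Figure D3:**
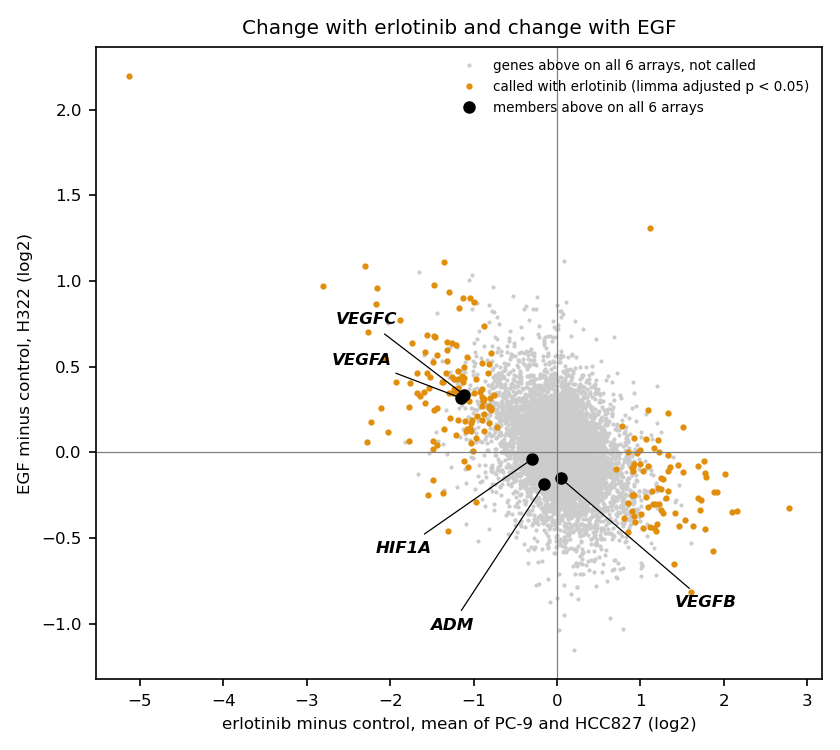
Each point is 1 gene above background on all 6 arrays, by its mean log2 change with erlotinib in PC-9 and HCC827 (horizontal) and its log2 change with EGF in H322 (vertical); orange points passed the limma test and black points are the 5 members so measured. VEGFA and VEGFC lie at the upper left among the genes that fell with erlotinib, at 0.32 and 0.33 with EGF, while VEGFB, ADM and HIF1A lie close to the origin.

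The untreated lines also differed in these genes, as described from 1 control array each. VEGFA was highest in HCC827, close to it in PC-9, and 8.80-fold and 6.63-fold lower in H322 than in these lines. VEGFC was highest in PC-9, 2.86-fold above HCC827 and 8.42-fold above H322. STC1 was alike in the mutant lines (1.16-fold) and at least 29.5-fold higher in PC-9 than in H322. PDGFB set PC-9 apart, at 52.0-fold above HCC827 and 28.4-fold above H322, and PDGFA was at least 2.90-fold and at least 2.53-fold higher there. ADM had the reverse of the order of VEGFC, with H322 highest, then HCC827 (1.47-fold lower) and PC-9 (2.52-fold lower). HIF1A was 2.23-fold lower in PC-9 than in HCC827, and VEGFB varied by at most 1.60-fold between any pair of lines. Differences of 2-fold or more are frequent between these lines, at 36.3%, 38.3% and 36.8% of the genes above background on at least 1 of the arrays for PC-9 against HCC827, PC-9 against H322 and HCC827 against H322.

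After erlotinib both mutant lines still gave a higher VEGFA signal than either H322 array. The VEGFC signal of HCC827 with erlotinib, 10.67, lay between the 2 H322 signals, while that of PC-9 with erlotinib, 12.63, lay above both. STC1 with erlotinib was still above background in both mutant lines and higher than in H322.

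Around these genes, lists of their pathway were examined in the same erlotinib fit. The list of 34 measured HIF target genes had 5 that fell, 0 that rose and 29 that did not pass, where 0.916% of all genes fell and 0.565% rose. Its median was -0.39 on the log2 scale against 0.00 for all genes. STC2, a paralog of STC1, fell by 2.06 ± 0.19 (limma adjusted p = 0.00875). The hexokinase gene HK2 fell by 2.19 ± 0.28 and the glucose transporter gene SLC2A1 by 1.78 ± 0.30 (limma adjusted p = 0.0184 and 0.0404). HK2 was not above background with erlotinib in PC-9. AK4, a mitochondrial adenylate kinase, fell by 1.26 ± 0.18 (limma adjusted p = 0.0251), with nearly equal changes of -1.28 in PC-9 and -1.24 in HCC827. PDK1, a kinase that inhibits pyruvate dehydrogenase, fell by 0.88 ± 0.15 (limma adjusted p = 0.0452). It is named because it completes the 5, after its values were seen. MXI1, an antagonist of MYC, had the highest mean change among those above background on all 4 arrays, 0.89 ± 0.18, and did not pass (limma adjusted p = 0.0641).

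Of the 24 HIF targets above background on all 4 arrays 16 were lower in both lines, against 30.8% of all genes so measured. Of the 34 measured targets 18 had an unadjusted p under 0.05 in limma, against 14.4% of all genes in either direction. The glycolytic genes ALDOA and TPI1 had mean changes of -0.01 and -0.10, LDHA had -0.12 and BNIP3L, which serves mitophagy, had 0.23. DDIT4 and NDRG1, above background on all 4 arrays, had -1.32 and -1.02, while MXI1 was the highest so measured at 0.89. None of these passed the threshold. In H322 with EGF the list's median change was 0.05. The 5 targets that fell with erlotinib, AK4, PDK1, STC2, HK2 and SLC2A1, had 0.64, 0.74, 0.55, 0.41 and 0.27. Of all genes that fell with erlotinib and were above background on both H322 arrays, 92.7% were higher with EGF, so this sign is not particular to HIF targets.

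Of the 15 measured genes that make and control HIF 14 were above background on all 6 arrays and 0 passed in limma, with a median of -0.02. At an unadjusted p under 0.05 in limma there were 3 of the 15, against 14.4% of all genes in either direction. CREBBP, a coactivator, had 0.75 ± 0.15 (limma adjusted p = 0.0612). EGLN3, a prolyl hydroxylase that marks HIF for destruction and is itself induced by it, had the lowest mean, -0.72 ± 0.34 (limma adjusted p = 0.403), with 0.09 in PC-9 and -1.54 in HCC827. EPAS1, which encodes the related subunit HIF-2 alpha, had -0.18 and ARNT, the common partner, had 0.50.

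Of 16 other secreted factors that act on vessels 7 were above background on no array and 2 fell, against 0.916% of all genes. SEMA3A, a semaphorin that binds neuropilin 1 and is known as an inhibitor of angiogenesis, fell by 1.37 ± 0.21 (limma adjusted p = 0.0344), with -1.67 in PC-9 and -1.07 in HCC827. HBEGF, an EGFR ligand that also acts on vessels, fell by 2.19 ± 0.40 (limma adjusted p = 0.0489), with neither HCC827 array above background. SEMA3C had 0.14 without passing. PGF and VEGFD, the remaining VEGF genes, were below background on all 6 arrays, and PDGFC and PDGFD had mean changes of 0.34 and 0.24 without passing.

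The receptors of these factors were mostly below background, with 11 of 16 measured genes above it on no array, among them FLT1, KDR and FLT4, the VEGF receptors, and PDGFRA and PDGFRB. None of the 16 passed in limma (2 at an unadjusted p under 0.05, against 14.4% of all genes). The co-receptor NRP1, which binds VEGFA and semaphorins, was measured on all 6 arrays and had -1.43 ± 0.33 (limma adjusted p = 0.0871), with -2.21 in PC-9 and -0.65 in HCC827. PDGFRL, a PDGF receptor-like gene, had 1.04 ± 0.22 (limma adjusted p = 0.0681). CALCRL, the receptor of adrenomedullin, was below background on all 6 arrays, as were its partners RAMP2 and RAMP3.

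On a list of 14 inhibitors of angiogenesis, which leaves out SEMA3A, 1 rose, 0 fell and 13 did not pass, where 0.565% of all genes rose and 0.916% fell. The one that rose, the chemokine gene CXCL10, had 2.02 ± 0.24 (limma adjusted p = 0.0175), with neither PC-9 array above background. THBS1, which encodes thrombospondin 1, was the only one of them above background on all 4 arrays. It had -1.67 ± 0.44 (limma adjusted p = 0.13), with -0.53 in PC-9 and -2.81 in HCC827. Its HCC827 signal with erlotinib, 6.97, lay just above the background of 6.92. Of the 8 proteases and partners that process or release the growth factors none passed in limma (3 at an unadjusted p under 0.05, against 14.4% of all genes). PLAT, the tissue plasminogen activator gene, had -1.37 ± 0.37, the proprotein convertase gene PCSK7 0.52 ± 0.22, and FURIN -0.11 ± 0.25.

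**Figure D4:**
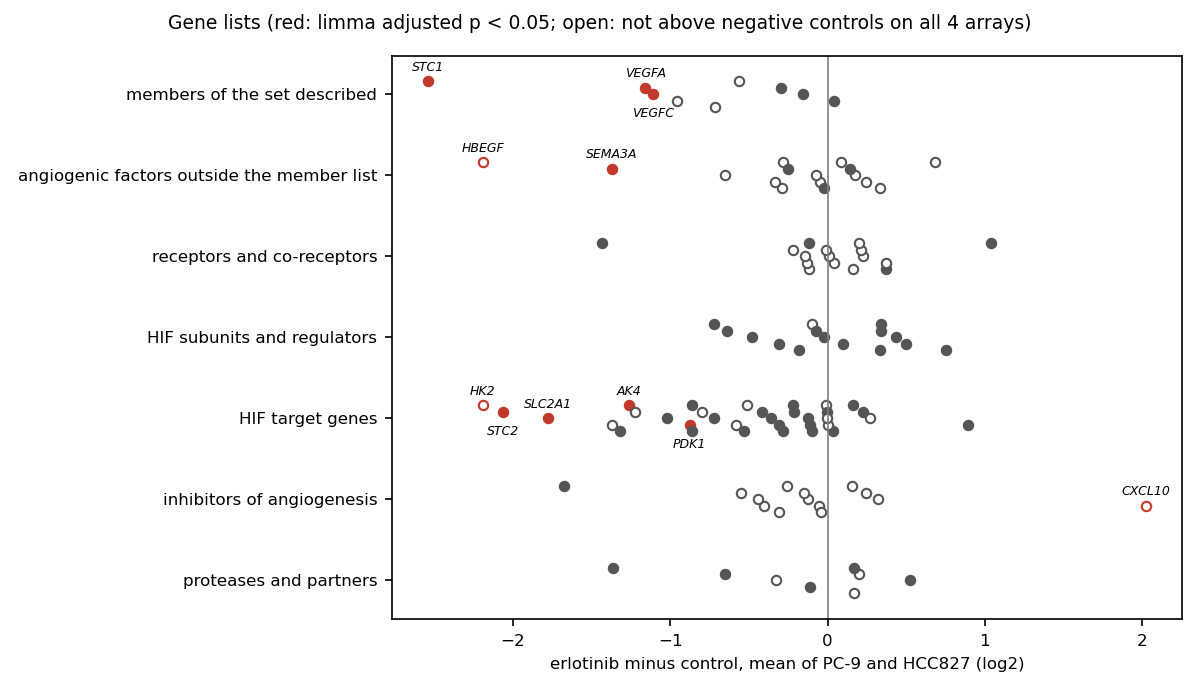
Mean log2 change with erlotinib over PC-9 and HCC827 for the 9 members and for 6 lists of related genes, 1 point per gene; red points passed the limma test at an adjusted p under 0.05 and open points were not above background on all 4 arrays. The called genes of the HIF target list all lie below 0, and no HIF subunit or regulator and no receptor is red.

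The genes most like each member were sought by the Euclidean distance over the 3 log2 changes (PC-9, HCC827 and H322) among the 7405 genes above background on all 6 arrays. Nearest to VEGFA were ELL2, MAP2K3 and EMP1, at distances of 0.10, 0.13 and 0.14. Nearest to VEGFC were WDR36, WDR77 and PDCD11, at 0.13, 0.13 and 0.14. VEGFA had 82 genes within 0.5 and VEGFC 85. Nearest to ADM were FGF9, TPRXL and SLC4A8, at 0.08, 0.14 and 0.16, with 134 within 0.5. VEGFB and HIF1A, whose changes were small, had 3281 and 2076 genes within that distance, the nearest being NPTN, SNAPC1 and CLN3 for VEGFB and ITGA3, RHOC and FUBP3 for HIF1A.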

How the data were processed

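Biotinylated cRNA from Trizol-extracted total RNA was read on the Clarion S array, as the labels' protocols state. The deposited file gives linear probe set intensities from 3.64 to 295568, which the authors obtained, per the submitters' processing notes, from Affymetrix Expression Console. The version, background correction, summarisation and genome build are not given in the sources used. Array medians of 148 to 157 show a like scale, and a shift common to most genes would not be seen.

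Of each intensity, log2(value + 1) was taken, which understates changes of dim genes. The platform annotation named 17709 of 24351 probe sets with 1 symbol, 0 with several and 6642 with none. For 20 genes with several probe sets the brightest was kept. A signal not above the 95th percentile of the negative controls was set to it for a fold ("at least"), and with both arrays below it no fold is given. Array number limits the precision.

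Erlotinib was tested with limma 3.58.1 in R 4.3.3 (statmod 1.5.0; lmFit, eBayes with trend, two-sided, Benjamini-Hochberg over all genes at 0.05) on the 4 EGFR-mutant arrays with the cell line as a block, since each line is its own control. EGF had no test. On simulated data with known changes the fit made no call of the wrong sign, but more false calls than its threshold allows. Members and lists were chosen with earlier results of these data known. Named were all members, in each list up to 4 genes past the threshold and the highest and lowest above background on all 4 arrays, and the 3 nearest genes of each member; others were named after their values were seen. Alternatives were the offset, scaling, filter, background, fold, model of the spread, block and probe set rule.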

Additional observations from a re-analysis of the deposited data

Results flagged for a closer look

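ADM and VEGFB had opposite signs with erlotinib in PC-9 and HCC827, all 4 signals of each being above background. ADM had a log2 change of 0.43 in PC-9 and -0.74 in HCC827, and VEGFB had 0.15 and -0.067. The differences were not tested, since each line has 1 array per condition.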

How the results depend on the processing

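No mean change of a member turned its sign in any alternative fit. With the filter, no trend, a robust trend, no line term or the mean of probe sets, a member's mean change cannot move. Its sign was therefore fixed in advance in those fits, which say nothing of its stability. For ANGPTL4, dim on all arrays, the sign was also fixed in advance where dim signals were set to the negative control percentile. Its change there, -0.17, is that of the percentiles themselves and equals the median of all genes in that fit. The 262 genes past the threshold became 166 (offset of 16), 96 (above the negative controls on at least 1 of the 4 arrays), 636 (medians centred), 954 (quantile normalization), 1115 (dim signals set to the negative control percentile), 1 (no trend) and 0 (no replicate block for the cell line; limma, 186 at an unadjusted p under 0.05). The members' count of 3 became 0 in limma with no trend and with no replicate block. At an unadjusted p under 0.05 the main limma fit had 6 of the 9 members and 14.4% of all genes. With no trend limma had 5 members and 2255 of the 17687 genes there, and with no replicate block 1 member and 186 genes. VEGFA and STC1 passed in 7 of 9 alternative fits, VEGFC in 6 and PDGFB in 2. The cause was not tested. Leaving out a line gives a change with no test: without PC-9 and without HCC827 it was -0.99 and -1.33 for VEGFA, -1.33 and -0.89 for VEGFC, and -2.24 and -2.84 for STC1. At a fold of 1.5 the members changed were 5 in PC-9, 4 in HCC827 and 1, PDGFB, in H322. Of all genes above background on at least 1 array of the line, 15.5%, 22.3% and 3.03% changed that far. With the 99th percentile of the negative controls as background 1 member, HIF1A, was above it on all 6 arrays, and PDGFA was no longer 2-fold lower in PC-9. Where the background is set thus limits which members count as measured.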
